A study of Mus musculus with 12 samples.

Results

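The 10 genes described here are the bone morphogenetic protein (BMP) ligands Bmp4, Bmp6 and Bmp7, the BMP receptors Bmpr1a, Bmpr1b and Bmpr2, and the Id genes Id1, Id2, Id3 and Id4. They were taken by name from the 23513 genes in the count tables, and all 10 were present. They were followed through the 25 neuronal and progenitor clusters of the embryonic mouse cortex and through 11 embryos, 5 from saline-injected and 6 from ethanol (EtOH)-injected dams.

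BMPs are secreted ligands of the TGF-beta superfamily. A ligand dimer brings together type I receptors (Bmpr1a and Bmpr1b) and a type II receptor (Bmpr2), the type I receptor is phosphorylated, and Smad1, Smad5 and Smad9 carry the signal with Smad4 to the nucleus, where the Id genes are classical targets. Id proteins are helix-loop-helix proteins without a DNA-binding region that hold E proteins away from proneural factors. In the developing telencephalon BMPs are made at the dorsal midline, in the cortical hem and the choroid plexus anlage, and act there as patterning signals.

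All embryos were C57BL/6J, an inbred mouse strain. Pregnant dams received saline or 2.5 g/kg EtOH (25% v/v in saline) intraperitoneally once daily for 6 days from embryonic day 8.5, and cortices were collected at embryonic day 14 for single nucleus RNA sequencing with a droplet 3′ kit. Embryos came from 2 saline dams and 2 EtOH dams, 1 of each in batch 1 (S1-1, S1-2, E1-1 and E1-2) and 1 of each in batch 2 (S2-1, S2-2 and S2-4, and E2-1 to E2-4). Littermates share a dam, so p-values measure the spread between embryos of a pair of litters per group. A further saline embryo was not analysed here.

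The tables held 50550 nuclei. Saline embryos had 44017566 to 83061737 unique molecular identifiers (UMIs) and EtOH embryos 14078316 to 38034349, and the median per nucleus was 6325 to 9051 UMIs in saline and 4071.5 to 6911 in EtOH. Depth therefore moved with treatment, and the saline embryo S2-4, with a median of 6325 UMIs, was the 1 saline embryo inside the EtOH range. Levels below are CPM, the UMIs of a gene summed per embryo and cluster and scaled to the total of that cluster and embryo, given for embryos with at least 10 nuclei of that cluster, and they compare clusters or groups for 1 gene, never 1 gene with another. The class markers were found where the cluster names put them: 8 markers of radial glial cells (RGCs) summed to 864 to 1349 CPM in RGCs and 102 to 139 CPM in projection neurons (PN), and 4 interneuron markers summed to 1259 to 1671 CPM in interneurons (Int) and 23.8 to 121 CPM in PN.

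By length the Id genes are short (Id1, 1160 bp on chromosome 2; Id2, 3342 bp on chromosome 12; Id3, 2259 bp on chromosome 4; Id4, 4799 bp on chromosome 13) and the receptors long, with Bmpr1b spanning 332290 bp of chromosome 3 in the GENCODE M21 annotation of GRCm38. The other genes span 92608 bp (Bmpr1a, chromosome 14), 115615 bp (Bmpr2, chromosome 1), 7150 bp (Bmp4, chromosome 14), 155196 bp (Bmp6, chromosome 13) and 72310 bp (Bmp7, chromosome 2). The genes with a called difference after EtOH lie at chr3:141837136-142169425 (Bmpr1b, minus strand), chr14:34410734-34503341 (Bmpr1a, minus strand) and chr13:48261228-48266026 (Id4, plus strand). Genes on the opposite strand with their own rows in the tables overlap 4 of them: Gm15222 overlaps Bmp4, Txndc5 and 4930579J19Rik overlap Bmp6, Gm17110 overlaps Bmpr1a and A330033J07Rik overlaps Id4.

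RefSeq (GRCm38.p6) start sites were at hand for 8 of the 10 genes. The 250 bases before the start site are shown for Id4, the Id gene with a difference after EtOH, and for Bmp4, a ligand of the same pathway, both windows lying outside GENCODE exons of their own gene. The Id4 window is chr13:48260866-48261115 on the plus strand and the Bmp4 window chr14:46390670-46390919 on the minus strand, both written 5′ to 3′. Capitals mark GGCGCC, a palindrome found in BMP-responsive elements of Id promoters, and the Smad box CAGAC or its reverse complement GTCTG, with both strands searched.
Id4: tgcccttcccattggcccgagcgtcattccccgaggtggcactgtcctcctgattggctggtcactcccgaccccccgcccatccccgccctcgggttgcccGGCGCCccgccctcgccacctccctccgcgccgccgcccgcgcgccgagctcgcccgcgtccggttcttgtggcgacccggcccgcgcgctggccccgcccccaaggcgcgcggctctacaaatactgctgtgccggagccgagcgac
Bmp4: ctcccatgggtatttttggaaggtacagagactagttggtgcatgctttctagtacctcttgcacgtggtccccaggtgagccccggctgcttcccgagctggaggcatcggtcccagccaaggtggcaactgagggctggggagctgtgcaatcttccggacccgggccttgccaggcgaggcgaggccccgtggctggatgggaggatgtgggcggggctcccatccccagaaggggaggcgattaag
The Id4 window held GGCGCC once and no Smad box, and the Bmp4 window held neither. Among 32851 RefSeq windows of this length, 9.59% held GGCGCC and 42.2% held a Smad box. GGCGCC was also present once in the windows of Id2, Bmpr1a and Bmpr2, the Id3 window held the Smad box at 2 places, and the Bmp6 window and 2 of 3 windows of Bmpr1b held it once. These are matches of letters only.

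The ligands were concentrated in a single cluster. Cluster 21, the RGCs of the cortical hem, was the highest cluster for Bmp4, Bmp6 and Bmp7, although it held 1.24% of nuclei and 1.40% of UMIs. It gave 67.1% of all Bmp4 UMIs (163 of 243), 43.5% of Bmp6 UMIs (1401 of 3222) and 29.3% of Bmp7 UMIs (452 of 1545). Bmp4, a dorsal midline ligand, was at 29.1 ± 10.2 CPM there (SD, n = 10 embryos), against 2.28 ± 2.95 CPM (n = 11) in Cluster 18 (Int 4), the next cluster, and lay above it in 10 of 10 embryos. Clusters 18 and 20 could not be ordered for Bmp4, since Cluster 18 was the higher in 3 of 9 embryos. In the remaining 22 clusters Bmp4 did not exceed 0.334 CPM.

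Bmp6 reached 241 ± 67.5 CPM in Cluster 21. It was next highest in Cluster 20 (RGC 2) at 33.8 ± 39.0 CPM (n = 9), then in Cluster 8 (PN 1) at 15.7 ± 7.56 CPM (n = 11) and in Cluster 24 (PN 2) at 12.5 ± 16.6 CPM (n = 10). Single embryos carried 2 of these means: without S2-2 (132 CPM) Cluster 20 was at 21.6 ± 13.9 CPM, and without S1-2 (52.8 CPM) Cluster 24 was at 7.97 ± 9.13 CPM. Cluster 21 was above Cluster 20 in 8 of 8 embryos with enough nuclei of both. The spread in Cluster 20 ran from 0 to 132 CPM, wider than its mean, whereas the range in Cluster 8 was 8.41 to 34.3 CPM, so that PN 1 had Bmp6 in every embryo. The lowest Bmp6 cluster mean was 1.0498 CPM. Bmp7 had a mean of 74.7 ± 24.5 CPM in Cluster 21 and was followed by Cluster 20 (13.95 ± 9.66 CPM), by Cluster 14 with 9.29 ± 5.40 CPM (layer I Cajal-Retzius cells, the Reelin-secreting early neurons of the cortical surface) and by the RGC 1 nuclei of Cluster 2 with 8.84 ± 2.90 CPM. Clusters 14 and 2 were close for Bmp7, with Cluster 14 higher in 7 of 11 embryos. All 5 RGC clusters had Bmp7 at 4.27 CPM or more, and no cluster of intermediate progenitor cells (IPCs) or Int was above 1.90 CPM, while the PN of Cluster 24 had a mean of 7.89 ± 8.46 CPM, higher than the means of RGC Clusters 12 and 3 but above Cluster 12 in 3 of 10 embryos.

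**Figure D1:**
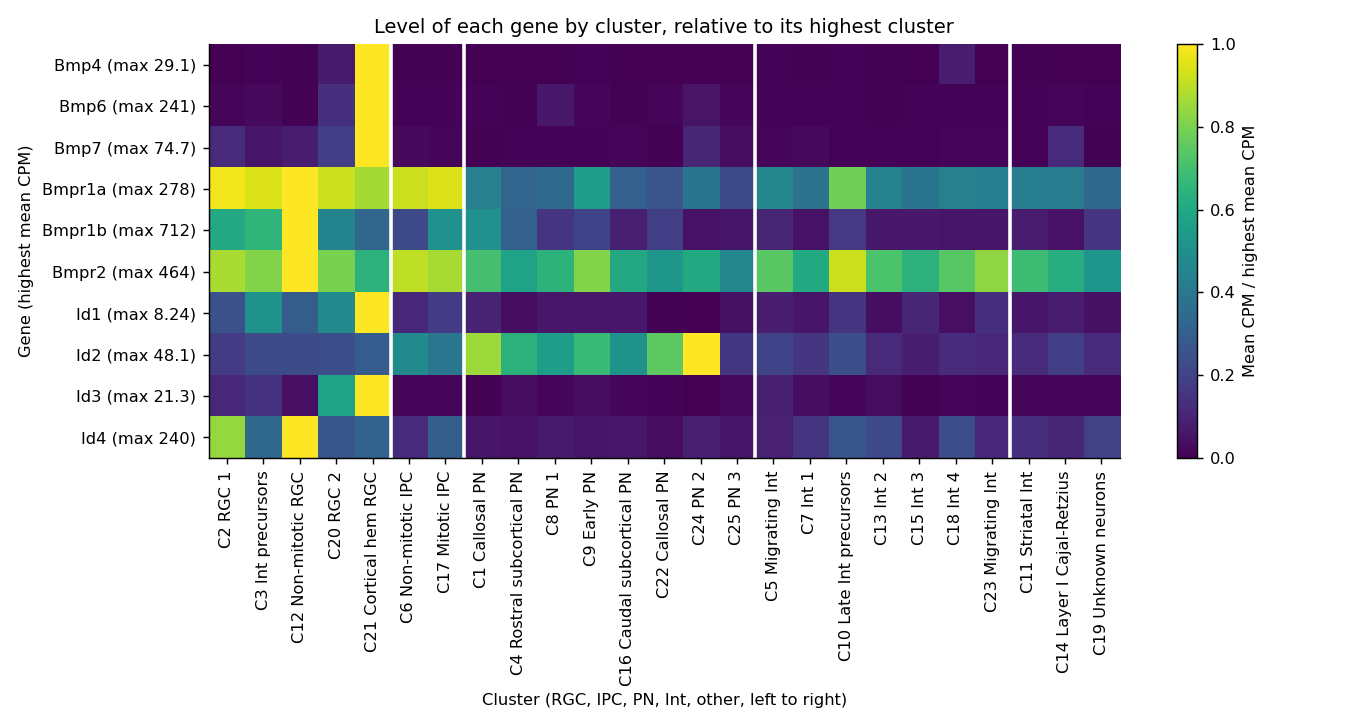
Mean CPM of each gene (rows) in each cluster (columns, grouped as RGC, IPC, PN, Int and other), divided by the gene's highest cluster mean, which is printed beside the gene. Bmp4, Bmp6, Bmp7, Id1 and Id3 peak in Cluster 21, the 3 receptors and Id4 in Cluster 12, and Id2 in Cluster 24.

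Cluster 21 carried the hem markers strongly in both groups. The 5 markers (Rspo2, Wnt8b, Wnt3a, Wnt2b and Lmx1a) summed to 4494 to 5419 CPM in saline and 5526 to 7207 CPM in EtOH, against 12.95 to 43.5 CPM in PN of saline embryos. Markers of the choroid plexus were present too, at 2579 to 8666 CPM in saline and 941 to 4123 CPM in EtOH, the latter without Kl. Meningeal fibroblast markers, of a tissue that also makes BMPs, summed to 17.6 to 57.9 CPM in saline and 8.65 to 39.5 CPM in EtOH, with 7 of 7 and 6 of 7 detected.

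The receptors were spread over all clusters and were highest in progenitors. Cluster 12 (non-mitotic RGC) led for all 3. Bmpr1b, a type I receptor, varied most: 712 ± 103 CPM (n = 11) in Cluster 12, 465 ± 66.0 CPM in Cluster 3 (Int precursors, which the cluster names place with the RGCs) and 431 ± 127 CPM in Cluster 2, with Cluster 12 above Cluster 3 in 11 of 11 embryos. Clusters 3 and 2 were in that order in 9 of 11. Among neurons, Bmpr1b was high in the callosal PN of Cluster 1 at 359 ± 95.9 CPM, level with the mitotic IPCs of Cluster 17 at 360 ± 68.1 CPM, and it was also found in the rostral subcortical PN of Cluster 4 at 217 ± 30.9 CPM. The lowest Bmpr1b levels over all embryos were in Cluster 7 (Int 1), 34.2 ± 17.4 CPM, and Cluster 14, 35.6 ± 15.8 CPM. In saline embryos alone Cluster 14 was the lower, at 47.0 CPM against 49.6 CPM.

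Bmpr1a, the other type I receptor, fell into a high and a low set of clusters. The 5 RGC and 2 IPC clusters lay at 241 to 278 CPM and the late Int precursors of Cluster 10 at 217 ± 37.4 CPM, followed by the early PN of Cluster 9 at 156 ± 13.5 CPM. Cluster 10 was above Cluster 9 in 10 of 11 embryos and Cluster 9 above the next, Cluster 5, in 11 of 11. From Cluster 5 downward the means ran from 128 to 61.6 CPM. At the top, Cluster 12 (278 ± 14.0 CPM) exceeded Cluster 2 (271 ± 15.3 CPM) in only 6 of 11 embryos, so the leading cluster was not separated, and in saline embryos alone Cluster 3 led. Bmpr2, the type II receptor, was the most even, its lowest mean being 214 CPM (Cluster 25) and its highest 464 ± 36.2 CPM (Cluster 12), where it exceeded Cluster 10 (427 ± 30.8 CPM) in 10 of 11 embryos. The cortical hem cluster, highest for the ligands, had rank 7 of 25 for Bmpr1a and Bmpr1b and rank 16 for Bmpr2.

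The Id genes divided into 3 patterns. Id1 and Id3, like the ligands, were highest in Cluster 21, Id1 at 8.24 ± 3.73 CPM (57 UMIs, n = 10) and Id3 at 21.3 ± 9.68 CPM (115 UMIs, n = 10). Id1 in Cluster 3 was 4.19 ± 1.41 CPM, and Cluster 21 was above it in 8 of 10 embryos. Id3 in Cluster 20 was 12.3 ± 14.5 CPM, and Cluster 21 was above it in 6 of 8. Both genes were rare, with 508 and 556 UMIs in all, and the highest PN cluster reached 0.801 CPM for Id1 and 0.697 CPM for Id3.

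Id4 was highest in RGCs. Cluster 12 had 240 ± 35.7 CPM and Cluster 2 had 202 ± 23.3 CPM, in that order in 11 of 11 embryos, and Cluster 2 was above Cluster 3 (81.0 ± 13.4 CPM) in 11 of 11. Cluster 21 was the fourth at 74.2 ± 13.6 CPM and was not separated from Clusters 3 or 17. All 8 PN clusters lay between 8.33 and 21.03 CPM. Id2 ran the other way: its first 7 clusters were all PN, led by Cluster 24 at 48.1 ± 16.7 CPM and Cluster 1 at 41.1 ± 6.61 CPM, which changed places in 5 of 10 embryos, and the only PN cluster outside this set was Cluster 25 at 7.72 ± 6.52 CPM. IPCs followed at 18.95 and 22.97 CPM, RGC clusters were at 8.32 to 13.9 CPM and Int clusters at 4.12 to 11.5 CPM.

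Over the 25 cluster means on the log2(CPM + 1) scale, Id3 correlated with Bmp4 (r = 0.80), Bmp7 (r = 0.77) and Bmp6 (r = 0.77), and Id1 with Id3 (r = 0.84). Id1 correlated with the receptor Bmpr1a (r = 0.77) no less than with Bmp7 (r = 0.72), Bmp4 (r = 0.66) and Bmp6 (r = 0.62). Bmpr1a correlated with Bmpr2 (r = 0.84) and with Id4 (r = 0.78), and Id2 with Id4 (r = -0.42). The points share libraries and differ in depth, and the values are descriptions. Among all genes with a mean of at least 5 CPM in some cluster, the genes most like each member were Fbln5, Abcg5 and Cdh3 for Bmp4 (r = 0.94 to 0.93), Gm36908, Abcg5 and Gm15222 for Bmp6 (0.89 to 0.87), AC154683.1, Sned1 and Gm5089 for Bmp7 (all 0.93), Tlk2, Wdr33 and Rbm39 for Bmpr1a (all 0.98), Gpc4, Igf2r and Mfsd2a for Bmpr1b (0.88 to 0.87) and Qrich1 and Acin1 for Bmpr2 (both 0.96). For the Id genes they were Ahnak, Spata24 and Nudt7 for Id1 (0.96 to 0.95), Znrf2, Neurod6 and Fmnl2 for Id2 (0.90 to 0.88), Mecomos, Ccdc68 and Arsi for Id3 (all 0.94) and Cnot10, Sox13 and Mir670hg for Id4 (0.95 to 0.91). Gm15222, on the strand opposite Bmp4, was highest in Cluster 21, at 9.67 CPM.

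To compare nuclei of unequal depth, the share of nuclei with a UMI expected after thinning each nucleus to 2000 UMIs was computed. The 177 saline and 210 EtOH nuclei below that number were left out. This thinned share was highest in the same cluster as the level for each of the 10 genes. The order further down could differ: for Bmpr1b, Cluster 2 (47.7%) was above Cluster 3 (46.5%). Without thinning, Bmpr1a was highest in Cluster 17 (83.9%, against 68.8% in Cluster 12). Bmpr2 was then highest in Cluster 25 (94.2%, against 83.5% in Cluster 12) and Id4 in Cluster 2 (72.3%, against 62.6%). The values below are after thinning. In Cluster 21, 31.3% ± 6.75 of nuclei had a Bmp6 UMI (SD, n = 10), 14.3% ± 4.51 a Bmp7 UMI, 6.33% ± 3.06 a Bmp4 UMI, 3.70% ± 1.87 an Id3 UMI and 1.76% ± 0.911 an Id1 UMI. The lowest clusters were at 0.198% ± 0.268 for Bmp6 (Cluster 13) and 0.100% ± 0.0925 for Bmp7 (Cluster 11). As means over embryos they are a rough guide to signal from free RNA and set no limit for a single embryo. In Cluster 12, 64.0% ± 6.71 of nuclei had a Bmpr1b UMI, 58.6% ± 2.88 a Bmpr2 UMI, 41.4% ± 1.82 a Bmpr1a UMI and 37.1% ± 4.58 an Id4 UMI (n = 11). The lowest Id4 share was 1.40% ± 1.15, in the callosal PN of Cluster 22. The median depths before thinning were 7702 UMIs in Cluster 21, 4934 in Cluster 12, 6789.5 in Cluster 13, 8528 in Cluster 11 and 10508 in Cluster 22.

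EtOH was then compared with saline within each cluster by edgeR's quasi-likelihood test on the summed counts. A gene was called when its Benjamini-Hochberg adjusted p was under 0.05 and its fold was below 0.8 or above the inverse of that. Of the 250 combinations of member and cluster, 116 had enough counts to be tested. In all, 2 were called, both lower after EtOH: Bmpr1b in Cluster 7 and Bmpr1a in Cluster 8. Over all genes and clusters, 0.350% of 217253 tests were called lower and 0.442% higher; within Cluster 7 the share called lower was 0.0266% and within Cluster 8 it was 0.865%. No member was called higher. Without the saline embryo S2-4, 9 of 118 member pairs were called, all lower, beside 19059 of 217112 tests over all genes (5658 of them lower). Without E2-2 no member pair was called, with 30 of 117 at an unadjusted p under 0.05, beside 139 of 212057 tests called over all genes. Id1 and Id3 passed the count filter in no cluster, Bmp4 in 1, Bmp7 in 3, Bmp6 in 4, Id2 in 13 and Id4 in 21, whereas Bmpr1a and Bmpr2 passed in all 25 and Bmpr1b in 24. In counts summed over a cluster, fewer cells of a kind and less RNA per cell cannot be told apart.

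Bmpr1b in Cluster 7 (Int 1) was 37.9, 40.7, 52.3, 72.3 and 44.8 CPM in saline embryos S1-1, S1-2, S2-1, S2-2 and S2-4. In EtOH embryos it ran from 16.02 CPM (E1-2, 8 UMIs) to 28.5 CPM (E1-1, 17 UMIs), with E2-2 at 18.97 CPM (119 UMIs). Every EtOH embryo lay below every saline embryo. The means were 49.6 ± 13.8 CPM (n = 5) and 21.4 ± 4.88 CPM (n = 6), a log2 fold change of -1.22 (SE 0.17, edgeR adjusted p = 0.0114). The difference was present in both batches, with means of 39.3 and 22.3 CPM in batch 1 and 56.5 and 21.03 CPM in batch 2. It was not called within either batch alone (log2 fold change -0.89, edgeR adjusted p = 0.375 in batch 1; -1.40, adjusted p = 0.105 in batch 2), without E2-2 (adjusted p = 0.148, log2 fold change -1.14) or without the 5% of nuclei with the most UMIs (adjusted p = 0.0711, log2 fold change -1.16). Interneuron markers in Cluster 7 summed to 564 to 989 CPM in saline and 543 to 1298 CPM in EtOH, striatal markers to 714 to 1328 and 447 to 1791 CPM, and RGC markers, of the class with the most Bmpr1b, to 110 to 227 and 99.1 to 230 CPM, so that for each of these lists the EtOH range enclosed the saline range. Over all embryos Cluster 7 had the lowest Bmpr1b mean, 34.2 CPM. Its thinned share of 5.01% was near the lowest, 4.83% in Cluster 24. In other low clusters the log2 fold change was -1.32 in Cluster 18 (edgeR adjusted p = 0.147, not called) and 0.11 in Cluster 15. In Clusters 20 and 1, with more Bmpr1b, it was -0.84 and 0.05. Whether the low level has a part in the call was not tested.

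Bmpr1a in Cluster 8 (PN 1) was 107, 108, 110, 121 and 91.0 CPM in S1-1, S1-2, S2-1, S2-2 and S2-4. The EtOH embryos lay between 76.8 CPM (E1-1) and 93.6 CPM (E2-1). S2-4 was the only saline embryo within the EtOH range. The means were 107 ± 10.6 CPM (n = 5) and 84.5 ± 6.12 CPM (n = 6), with a log2 fold change of -0.37 (SE 0.08, edgeR adjusted p = 0.0405), and 107 and 79.9 CPM within batch 1 and 107 and 86.8 CPM within batch 2. This call was close to the threshold. It was lost with batch as a covariate (adjusted p = 0.0522), with counts summed per dam (adjusted p = 0.146, or 0.0751 with the dams paired by batch) and on leaving out any embryo other than E1-1 or S2-4 (adjusted p 0.0592 to 0.120), and without S2-4 the adjusted p was 0.000213. Bmpr1a in Cluster 1 had an adjusted p of 0.0499 (log2 fold change -0.23, SE 0.07) but fell short of the fold required.

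The next smallest p-values belonged to Bmpr2 in Cluster 6, Bmpr1b in Cluster 14 and Bmpr2 in Cluster 14, none of them called. Bmpr2 in the non-mitotic IPCs of Cluster 6 was 424 to 470 CPM in saline and 368 to 418 CPM in EtOH, without overlap (log2 fold change -0.23, SE 0.06, edgeR adjusted p = 0.0714). Bmpr1b in Cluster 14 had a log2 fold change of -0.97 (SE 0.25, edgeR adjusted p = 0.107), with 30.7 to 66.3 CPM in saline and 15.7 to 41.8 CPM in EtOH overlapping through S2-4, S1-2, E1-1 and E2-1. In the same cells Bmpr2 was 315 to 342 CPM in saline and 226 to 287 CPM in EtOH, which did not overlap (log2 fold change -0.32, SE 0.09, adjusted p = 0.108).

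**Figure D2:**
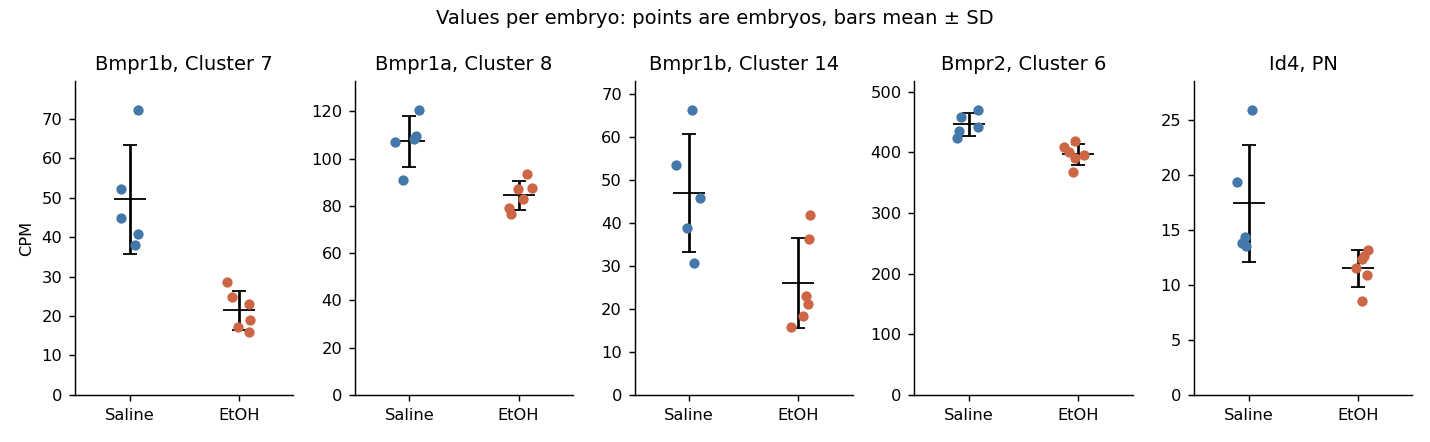
CPM per embryo (points) with mean ± SD in saline and EtOH for the called pairs Bmpr1b in Cluster 7, Bmpr1a in Cluster 8 and Id4 in PN, and for Bmpr1b in Cluster 14 and Bmpr2 in Cluster 6, which were not called. In Cluster 7 every EtOH embryo lies below every saline embryo.

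Across clusters the receptor estimates leaned one way. Bmpr2 was lower after EtOH in 24 of 25 clusters, with a median log2 fold change of -0.17, Bmpr1a in 23 of 25, with a median of -0.17, and Bmpr1b in 19 of 24, with a median of -0.31 and a range from -1.41 to 0.39. Id4 was lower in 20 of 21 clusters, with a median of -0.32, but this rested on batch 2. In fits within batch 1, with 2 embryos a group, Id4 was lower in 11 of 20 clusters, with a median of -0.0082, and within batch 2 it was lower in 21 of 21, with a median of -0.49. The receptors were lower in most clusters of either batch, by unlike amounts. Within batch 1 Bmpr2 was lower in 20 of 22 (median -0.24), Bmpr1a in 21 of 22 (-0.21) and Bmpr1b in 14 of 21 (-0.20). Within batch 2 they were lower in 25, 22 and 21 of 25, with medians of -0.09, -0.09 and -0.47. By comparison, 49.0% of all gene and cluster tests were lower and the cluster medians over all genes lay between -0.01 and 0.01. Unadjusted p-values under 0.05 were found in 8 clusters for Bmpr1a, 7 for Bmpr1b, 12 for Bmpr2 and 9 for Id4, against 17.4% of all tests. The clusters come from the same embryos and share their depth, so these counts are not independent, and the part of depth in them was not tested. Thinning embryos to equal totals keeps the expected CPM of a gene, so it could not decide the part of depth. After it, 78 of the 97 member pairs tested were lower.

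**Figure D3:**
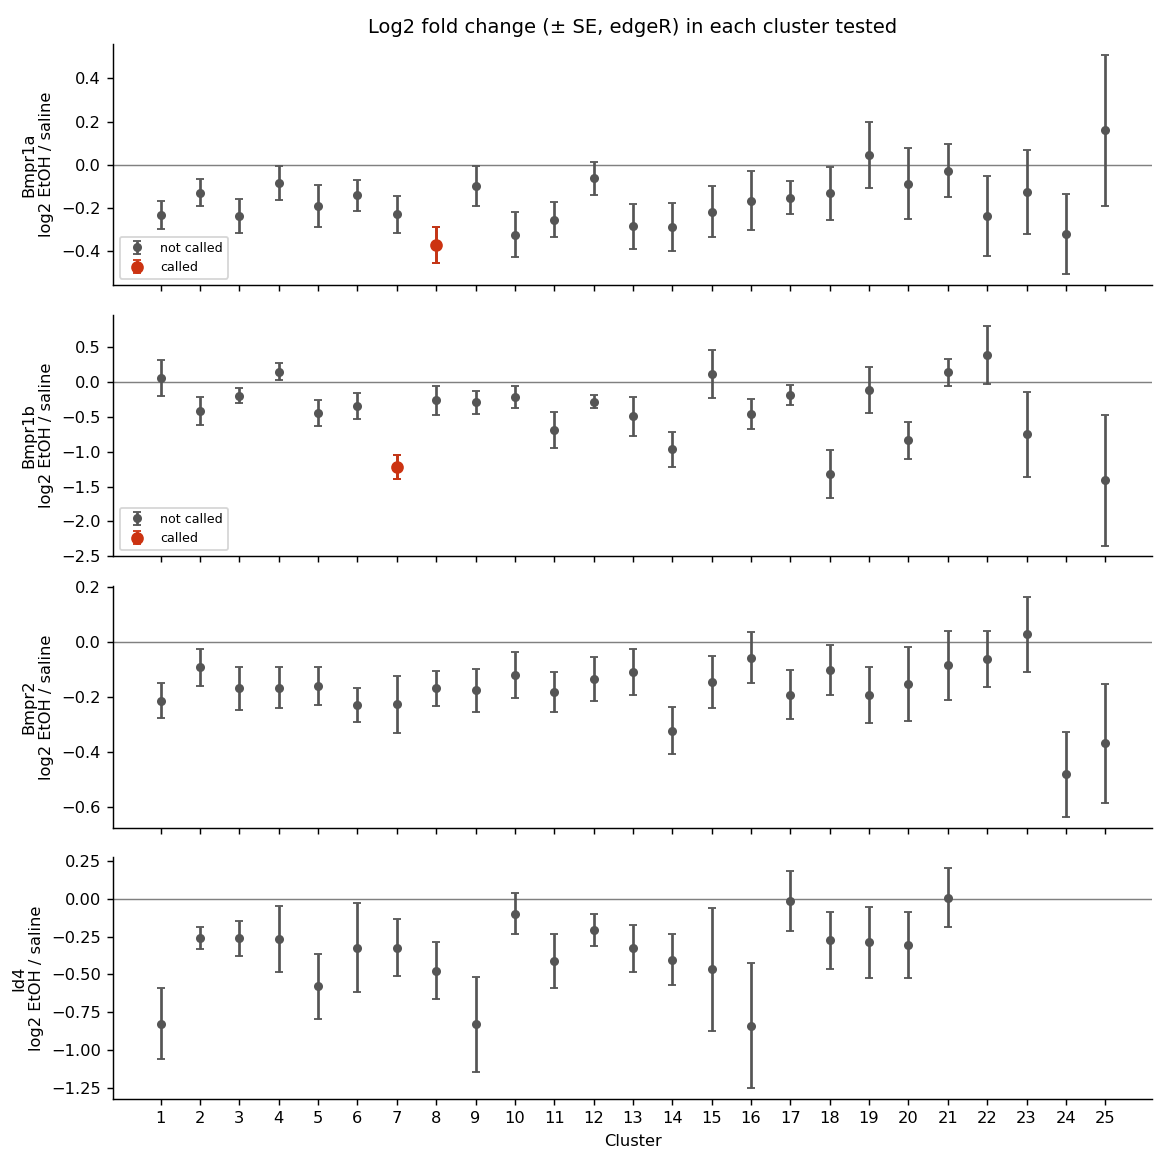
Log2 fold change of EtOH over saline (points, ± SE derived from the edgeR F statistic) of Bmpr1a, Bmpr1b, Bmpr2 and Id4 in each cluster where they could be tested, with called values in red. Bmpr2 is below 0 in 24 of 25 clusters and Id4 in 20 of 21, while Bmpr1b is above 0 in 5.

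In Cluster 21 the genes that peak there showed no difference that passed the test. Bmp6 was 203, 298, 188, 228 and 136 CPM in S1-1, S1-2, S2-1, S2-2 and S2-4 and 332, 201, 231, 238 and 353 CPM in E1-1, E1-2, E2-2, E2-3 and E2-4, with E2-1 left out for its 3 nuclei. The groups overlapped, and the log2 fold change was 0.37 (SE 0.21, edgeR adjusted p = 0.490). Bmp7 was 54.9 to 80.6 CPM in saline and 51.3 to 121 CPM in EtOH (log2 fold change 0.35, SE 0.23, adjusted p = 0.576), and Bmp4 18.4 to 41.2 CPM and 10.99 to 45.2 CPM (log2 fold change 0.06, SE 0.35, adjusted p = 0.984). These estimates are imprecise: an EtOH embryo gave as few as 3 Bmp4 UMIs here. As given above, hem markers summed higher in every EtOH embryo than in any saline embryo of Cluster 21, as did RGC markers (425 to 610 CPM in saline, 611 to 787 CPM in EtOH). Choroid plexus markers, also given above, went the other way, to a lower range in EtOH that overlapped the saline range. The part of these marker sets in the ligand values was not tested. Id3 and Id1 could not be tested by the count filter. Id3 had 3.92 to 24.2 CPM in saline and 17.3 to 36.6 CPM in EtOH, means of 15.02 ± 7.32 and 27.6 ± 7.61 CPM (n = 5 each), and Id1 had 3.85 to 13.6 CPM and 4.33 to 13.1 CPM, with overlap in both. The saline embryo S2-2 gave 206 of the 627 nuclei of the cluster.

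**Figure D4:**
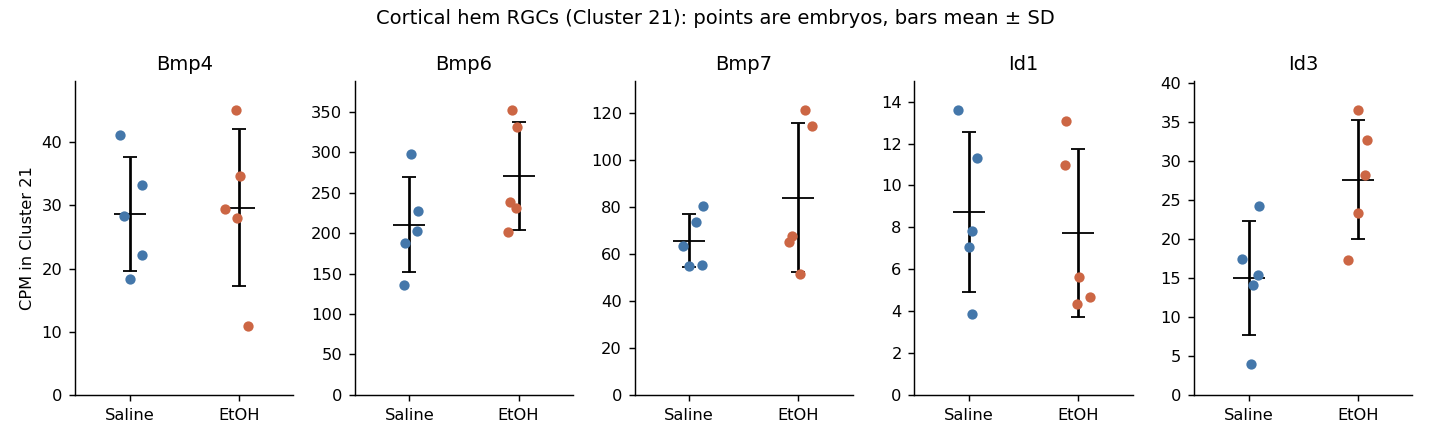
CPM per embryo (points) in Cluster 21, cortical hem RGCs, for the 5 genes that are highest there, with mean ± SD by group and embryos with under 10 nuclei left out. The groups overlap for all 5 genes.

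The genes that peak in Cluster 12 did not pass the test there. Bmpr1b was 679, 819, 909, 771 and 711 CPM in saline and 572 to 752 CPM in EtOH (log2 fold change -0.28, SE 0.09, edgeR adjusted p = 0.123). Bmpr2 was 435 to 533 CPM and 418 to 487 CPM (-0.14, SE 0.08, adjusted p = 0.381), Bmpr1a 249 to 300 CPM and 268 to 291 CPM (-0.06, SE 0.08, adjusted p = 0.711) and Id4 216 to 293 CPM and 198 to 294 CPM (-0.21, SE 0.10, adjusted p = 0.289). For all 4 genes the groups overlapped. Id2 in Cluster 24, its highest cluster, was not tested: it was 64.6, 61.0, 35.2, 51.9 and 37.7 CPM in saline, from 3 to 30 UMIs, and 26.8 to 80.3 CPM in the 5 EtOH embryos with enough nuclei, and the groups overlapped. In Cluster 1, the second, Id2 had a log2 fold change of -0.31 (SE 0.12, adjusted p = 0.139).

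When clusters were joined into the 4 major cell types, RGC, IPC, PN and Int, 28 of 40 combinations could be tested and 1 was called, Id4 in PN, lower after EtOH. Of all 54969 tests over the 4 types, 1.47% were called lower and 2.85% higher, and in PN 2.36% were called lower. Id4 in PN was 13.8, 13.5, 19.4, 25.9 and 14.3 CPM in S1-1, S1-2, S2-1, S2-2 and S2-4 and 8.498 to 13.2 CPM in EtOH. The groups did not overlap, but S1-2 and E2-2 were 13.5 and 13.2 CPM. The means were 17.4 ± 5.33 CPM (n = 5) and 11.5 ± 1.69 CPM (n = 6), a log2 fold change of -0.62 (SE 0.16, edgeR adjusted p = 0.0369), and 13.7 and 12.5 CPM within batch 1 and 19.9 and 11.03 CPM within batch 2. The call was lost with counts summed per dam (adjusted p = 0.143, or 0.128 with the dams paired by batch), with limma-voom and the dam as a random block (adjusted p = 0.0719), after thinning to equal totals (adjusted p = 0.0560), and on leaving out any 1 embryo except S2-4 (adjusted p 0.0510 to 0.0881, against 0.00745 without S2-4).

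PN is the class in which Id4 was lowest, and markers of progenitors in PN are given beside it. The 8 RGC markers summed to 108 to 126 CPM in PN of saline embryos and 102 to 139 CPM in EtOH, which overlapped. The 3 IPC markers (Eomes, Neurog2 and Mfap4) summed to 30.3 to 47.2 CPM in saline and 22.005 to 29.7 CPM in EtOH, which did not, and their part in the Id4 difference was not tested. In RGCs, where Id4 is high, it was 147 to 188 CPM in saline and 121 to 175 CPM in EtOH (log2 fold change -0.18, SE 0.09, edgeR adjusted p = 0.218). The batch means there went opposite ways, from 153 CPM in saline to 164 CPM in EtOH in batch 1 and from 163 to 141 CPM in batch 2. The fitted log2 fold changes did not, at -0.0033 in batch 1 and -0.25 in batch 2. In IPC the batch means went from 32.7 to 54.3 CPM in batch 1 and from 50.8 to 33.4 CPM in batch 2. The fitted values there went opposite ways too, at 0.59 and -0.62. For Id4, whether the change differs between PN and RGC was not tested. Bmpr1a had an adjusted p under 0.05 with a fold short of the cutoff in Int (log2 fold change -0.28, SE 0.06, adjusted p = 0.0306) and in PN (-0.23, SE 0.06, adjusted p = 0.0328), as did Bmpr2 in PN (-0.20, SE 0.06, adjusted p = 0.0457). In Int, Bmpr1a was 131 to 146 CPM in saline and 114 to 125 CPM in EtOH, and every EtOH embryo was below every saline embryo. The ligands in RGCs, which include Cluster 21, did not pass the test, with edgeR adjusted p-values of 0.285 for Bmp4, 0.608 for Bmp6 and 0.772 for Bmp7.

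The share of nuclei with a UMI was compared between the groups over embryos, after thinning to 2000 UMIs, with an exact two-sided permutation test over the 462 ways of choosing 6 of 11 embryos, whose smallest p here was 0.00216. Of 40 combinations, 9 had an unadjusted p under 0.05 and 6 an adjusted p under 0.05, these 6 all lower after EtOH. The adjustment ran over these 40 tests only, so its values are not on the scale of the edgeR ones, adjusted over all genes. Shares of other genes were not tested, so no background of that kind stands beside the 6. The shares come from the same counts as the CPM and are not separate support. Thinning a nucleus keeps the expected fraction of its UMIs that a gene has. It could therefore not decide whether that fraction moves with depth. In the edgeR tests per type, 28.9% over all genes had an unadjusted p under 0.05. None of the 40 passed on leaving out any 1 of the 6 EtOH embryos (7 to 10 unadjusted p-values under 0.05). The smallest p the permutations could give there was 0.00794, at which 6 combinations alone could not pass the adjustment over 40 tests. Their loss was therefore fixed by the number of embryos. Leaving out a saline embryo allowed a permutation p of 0.00476, and 4 to 6 passed. Bmpr1b in Int fell from 9.61% ± 1.69 (SD, n = 5) to 5.18% ± 1.02 (n = 6; exact permutation, adjusted p = 0.0216). Its level in Int did not pass the test (log2 fold change -0.49, SE 0.16, edgeR adjusted p = 0.0731), with 56.2 to 77.4 CPM in saline overlapping 32.9 to 73.3 CPM in EtOH and means of 63.05 and 63.00 CPM in batch 1 and 74.9 and 47.8 CPM in batch 2. Bmpr1a in Int fell from 23.5% ± 1.00 to 20.1% ± 0.893 (exact permutation, adjusted p = 0.0216) and in PN from 20.1% ± 0.662 to 17.6% ± 1.053 (exact permutation, adjusted p = 0.0346). Bmpr2 in PN fell from 46.0% ± 1.34 to 42.5% ± 1.75 (exact permutation, adjusted p = 0.0216) and in IPC from 55.4% ± 1.80 to 51.7% ± 1.24 (exact permutation, adjusted p = 0.0433). Id4 in PN fell from 3.58% ± 1.20 to 2.04% ± 0.393 (exact permutation, adjusted p = 0.0216), values not far above the 1.40% of Cluster 22, its lowest. The lowest cluster shares of the receptors were 4.83% ± 4.34 for Bmpr1b (Cluster 24), close to its EtOH value in Int, 10.9% ± 2.81 for Bmpr1a and 34.9% ± 5.17 for Bmpr2 (both Cluster 25), and no cell type here is known to lack them. In Int, PN and IPC the median depth before thinning was 7445, 7630.5 and 5939 UMIs.

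By embryo, Bmpr1b in Int was 10.0%, 7.86%, 10.52%, 11.7% and 7.91% in S1-1, S1-2, S2-1, S2-2 and S2-4 and 4.13% to 6.64% in EtOH. All 6 EtOH embryos were below all 5 saline embryos, as they were for Bmpr1a in Int (18.7% to 21.4% against 22.7% to 25.1%), Bmpr1a in PN (15.8% to 18.8% against 19.4% to 20.7%), Bmpr2 in PN (39.0% to 43.5% against 44.8% to 48.0%) and Id4 in PN (1.27% to 2.38% against 2.59% to 5.38%). For Bmpr2 in IPC the ranges of 49.9% to 53.4% and 53.2% to 57.5% met at E2-3 and S2-1. When embryos were exchanged only within their batch, 4 of the 6 kept an adjusted p under 0.05 (Bmpr1a and Bmpr1b in Int, Bmpr2 and Id4 in PN, exact permutation, each adjusted p = 0.0476), and Bmpr1a in PN and Bmpr2 in IPC did not (0.0762 and 0.0952). The dam means kept the order: for Bmpr1b in Int they were 8.93% and 10.1% for the saline dams and 5.71% and 4.92% for the EtOH dams, and these dam means were not tested. Without thinning, 38 of the 40 combinations were lower and 20 had an adjusted p under 0.05, and Bmpr1b in Int was 27.9% in saline and 12.03% in EtOH. Unthinned shares also depend on depth, which moved with treatment, and its part in them was not tested. The ligands in RGCs and Id1, Id2 and Id3 in any type did not pass after thinning.

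**Figure D5:**
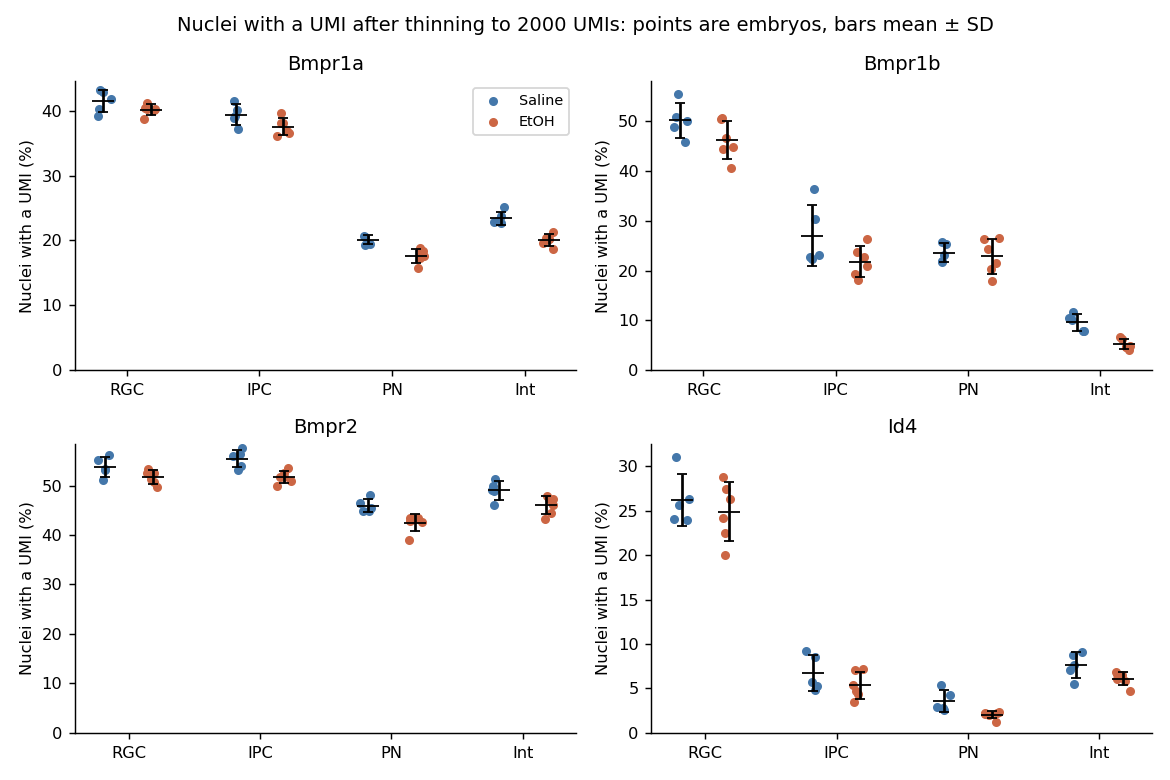
Percent of nuclei with a UMI after thinning to 2000 UMIs, per embryo (points) with mean ± SD, in 4 major cell types for Bmpr1a, Bmpr1b, Bmpr2 and Id4. In Int the Bmpr1b points of EtOH embryos (4.13% to 6.64%) lie below those of saline embryos (7.86% to 11.7%).

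The rest of the pathway was described with 6 lists: other ligands, receptors and co-receptors, antagonists and modulators, Smad transducers and regulators, targets, and E proteins. The antagonists and modulators include Bmp1, Tll1 and Tll2, and the Smad list includes regulators such as Zeb2 and Smurf2. Cluster 21 was the highest cluster for the ligands Bmp5 (32.4 ± 19.9 CPM, n = 10) and Gdf11 (20.4 ± 9.50 CPM) and for the antagonist Sostdc1. It was so for Gdf5 and Gdf7 by 9 and 2 UMIs only, too few to order clusters. It was also the highest for 5 of 8 targets, among them the hem factor Lmx1a (1052 ± 206 CPM) and the inhibitory Smad6 (97.3 ± 24.1 CPM). Lmx1a is itself among the hem markers used above, and Bambi and Msx2, also among the 5, had only 16 and 22 UMIs in Cluster 21. That cluster was the highest for none of the 10 other receptors and co-receptors. Of these, Neo1 led in Cluster 16 at 1032 ± 44.5 CPM, Acvr2a, a type II receptor, in Cluster 18 at 326 ± 49.1 CPM and Rgma, a co-receptor, in Cluster 2 at 304 ± 35.99 CPM. Among antagonists and modulators Bmper was highest in Cluster 23 (635 ± 178 CPM), Fstl1 in Cluster 20 (165 ± 35.1 CPM) and Tll1 in Cluster 25 (154 ± 102 CPM). Of the Smad list, Zeb2 led in Cluster 5 (2452 ± 184 CPM), Smurf2 in Cluster 10 (333 ± 33.9 CPM) and Smad4 in Cluster 20 (184 ± 23.96 CPM). Bmp3 was highest in Cluster 16 (24.9 ± 11.97 CPM) and Smad7 in Cluster 12 (42.8 ± 9.13 CPM). Of the E proteins, which Id proteins bind, each was highest in a different cluster, Tcf4 at 5069 ± 274 CPM in Cluster 9, Tcf12 in Cluster 5 at 1434 ± 88.5 CPM and Tcf3 at 110.1 ± 30.0 CPM in Cluster 20.

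After EtOH, 1 of 618 pairs of these genes and clusters was called, Tcf12 in Cluster 4 (log2 fold change -0.46, SE 0.08, edgeR adjusted p = 0.0495). Over the major cell types 3 of 140 were called, all lower: Acvr2a in RGCs (-0.32, SE 0.07, adjusted p = 0.0402), and in PN the Notch and BMP target Hey1 (-0.96, SE 0.27, adjusted p = 0.0413) and Bmper (-0.41, SE 0.12, adjusted p = 0.0458). These shares, 0.162% and 2.14%, stand beside the background percentages above. By direction, the other receptors were lower in 115 of 157 cluster tests (median log2 fold change -0.13) and the Smad list in 179 of 230 (median -0.11). Antagonists and modulators were lower in 50 of 125 (median 0.07) and other ligands in 13 of 25 (median -0.00375). E proteins were lower in 43 of 75 (median -0.04) and targets in 13 of 40 (median 0.13). Smad6, Smad7 and Bambi are in both the Smad list and the target list, so the counts of these lists are not independent. Within the members, the median was -0.19 for the receptors, -0.27 for the Id genes and 0.01 for the ligands, over 74, 34 and 8 cluster tests.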

How the data were processed

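Nuclei were isolated from embryonic cortices and sequenced with a droplet 3′ kit. The authors ran Cell Ranger with default settings on its mm10 reference (the Cell Ranger version is not given in the sources used here), filtered nuclei in Seurat, clustered them and removed 1 saline embryo. The deposited files hold raw UMI counts per gene and nucleus with the authors' cluster of each nucleus, and no sequencing reads were handled here. Nothing in these sources says that doublets were removed, and none were called here. An alternative left out the 5% of nuclei with the most UMIs in each embryo and cluster.

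Counts were summed per embryo and cluster (at least 10 nuclei) or major cell type and tested with edgeR 4.0.16 in R 4.3.3 (TMM factors, filterByExpr, robust quasi-likelihood, no covariate, Benjamini-Hochberg over the genes of each cluster or type). Calls needed an adjusted p under 0.05 and a fold above 1.25 or below 0.8. The SE given with a log2 fold change is its absolute value divided by the square root of the F statistic of the test. Shares of nuclei were compared with exact two-sided permutation tests in SciPy 1.17.1 and NumPy 2.4.6. The scripts for edgeR were tested on simulated data. Alternatives were RLE factors, no count filter, DESeq2 1.42.0, batch as a covariate, counts per dam, limma 3.58.1 voom with a dam block, equal totals, at least 20 nuclei and leaving out each embryo. Fits within each batch, and of dam counts paired by batch, were added after seeing the data.

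The members and lists were chosen with earlier results of these data known. Values by embryo, or their range, were given for each member in its highest cluster, for called pairs, and for the 5 pairs with the smallest p-values. Of the pathway lists, called genes and the 3 genes with the highest CPM in any cluster were named, a rule that only selects names, since CPM is not compared between genes, and for each member the 3 most similar genes, of which 1 is not reported here. The ligands Bmp10, Gdf2 and Gdf6 were not used here. All 11 libraries were compared for shared barcodes: 314 of 50226 barcodes occurred in more than 1 library, and libraries of the same dam differed by more than sampling noise. Gene positions came from GENCODE M21, in which 23136 of 23513 symbols were found, and promoter sequences from RefSeq.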

Additional observations from a re-analysis of the deposited data

Results flagged for a closer look

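Of the 50 groups of 5 or 6 embryos examined for a value far from the rest, 4 had one by Dixon's criterion, and chance gives about 1 in 20 groups. Bmpr2 in Cluster 14 was 342 CPM in the saline embryo S2-2, while the other 4 saline embryos lay between 315 and 318 CPM. The other 3 values all belong to PN of the EtOH embryo E2-3. Its Bmpr2 level of 253 CPM was the lowest of the 6 EtOH embryos, its share of PN nuclei with a Bmpr2 UMI was 39.0% after thinning to 2000 UMIs, against 42.6% to 43.5% in the other 5, and its share with an Id4 UMI was 1.27%, against 2.04% to 2.38%. Without E2-3, the log2 fold change of Id4 in PN was -0.56 (edgeR adjusted p = 0.0687), against -0.62 with it.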

How the results depend on the processing

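Bmp4, Bmp6, Bmp7, Id1 and Id3 were highest in Cluster 21 under every alternative run for the levels, and Bmpr1a was the 1 gene whose leading cluster changed, to Cluster 3 in saline embryos alone (280 CPM in Cluster 12). Member pairs called per cluster numbered 2 of 116, against 15 of 243 without a count filter and 6 of 243 with DESeq2. They numbered 4 of 116 with limma-voom and the dam as a block, and 10 of 112 within batch 1. Within batch 2 there were 0 of 117 (edgeR, 32 at an unadjusted p under 0.05). On leaving out an embryo there were 0 to 9 (9 of 118 without S2-4). Over all genes 1721 of 217253 tests were called, against 10729 of 519300 without a count filter and 5720 of 519220 with DESeq2. The number was 6457 of 217253 with limma-voom, 7833 of 202321 within batch 1 and 50 of 223275 within batch 2. With batch as a covariate it was 911 of 217253. On leaving out an embryo it ran from 89 of 218181 (without S1-1) to 19059 of 217112 (without S2-4). Per major type, 1 of 28 member pairs was called, against 3 of 40 with DESeq2 and 2 of 28 without the 5% of nuclei with the most UMIs. Within batch 1 it was 5 of 28. It was 0 with counts per dam, with equal totals and within batch 2 (9, 11 and 7 at an unadjusted p under 0.05), and 0 to 2 on leaving out an embryo. Over all genes per type 2373 of 54969 were called, against 5032 of 92247 with DESeq2, 1551 of 54969 with batch as a covariate and 1014 of 67458 with counts per dam. It was 4037 of 54969 with limma-voom, 6557 of 54910 within batch 1 and 0 of 55859 within batch 2 (6899 unadjusted). On leaving out an embryo it was 0 to 9915 (0 without E2-2, S1-2 or S2-1, and 9915 of 55017 without S2-4). The cause was not tested. Calls of members were lower under these alternatives except for Id4 in Cluster 6 and in IPC within batch 1. Shares past the threshold numbered 6, against 20 without thinning and 0 to 6 on leaving out an embryo. On leaving out any 1 EtOH embryo all 6 were lost, with 7 to 10 unadjusted p-values under 0.05. The smallest permutation p there was 0.00794 over 252 splits, at which 6 combinations alone could not pass. Per cluster, signs turned, among others, for Bmp4 in Cluster 21 (-0.059 without a filter, -0.54 within batch 1, -0.13 to 0.28 on leaving out an embryo), Bmp6 in Cluster 21 (-0.013 within batch 1) and Bmpr1a in Cluster 12 (0.10 with equal totals). Per type, they turned within batch 1, among others, for Bmp7 in RGCs (0.52, against -0.19 in all embryos). So they did for Bmp6 in RGCs (0.33, against -0.38) and Id4 in IPC (0.59, against -0.18). The RGC sums of Bmp6 and Bmp7 hold unequal numbers of Cluster 21 nuclei between embryos, and the part of this was not tested. Counts were also summed per dam with a replicate block by batch, which pairs 1 saline with 1 EtOH dam in each batch. Then 6 of 151 member pairs and 5843 of 292856 tests over all genes were called per cluster. Per type, 0 of 37 member pairs (10 unadjusted) and 2042 of 67458 tests were called. The embryo numbers of the groups mark no pair.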

Other observations

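Bmp6 in the callosal PN of Cluster 1, named after its values were seen, was too low to pass the count filter. It was 5.25, 3.73, 3.16, 8.52 and 0.461 CPM in S1-1, S1-2, S2-1, S2-2 and S2-4 and 0 to 1.33 CPM in EtOH, and S2-4 was the only saline embryo inside the EtOH range. Low values after EtOH were not limited to Cluster 1: in Cluster 12 Bmp6 was 1.45 to 3.42 CPM in saline and 0 to 1.26 CPM in EtOH. In Cluster 8 the means went the other way, from 12.3 to 18.6 CPM. Bmp6 in Cluster 1 was called lower with DESeq2, without a count filter, within batch 1 and with counts summed per dam, paired by batch or not. With 0 to 3 UMIs per EtOH embryo, it could pass a filter only through its saline counts, so these calls are not support. Id4 in the same cluster was 19.6 ± 7.65 CPM in saline and 11.02 ± 2.79 CPM in EtOH, with a log2 fold change of -0.82 (SE 0.24, edgeR adjusted p = 0.0571), and was called with DESeq2, without a filter, with batch as a covariate, without the 5% of nuclei with the most UMIs and without S2-4.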
